A study of Mus musculus with 2 samples.

Results

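Lymphatic endothelial cells line the vessels that drain fluid and leukocytes from the uterus, and a gate for them held 62 of 8603 cells of mouse uterus. The cells were chosen by measured genes. A barcode counted as a cell with 500 or more genes detected and no more than 20% of its transcripts from mitochondrial genes. It counted as a member when at least 3 of 7 genes were detected (Prox1, Lyve1, Ccl21a, Mmrn1, Flt4, Pecam1 and Cdh5), with at least 1 of Prox1, Mmrn1 or Flt4 among them, and when the pan-leukocyte gene Ptprc was not detected. The study profiled dissociated whole uteri with droplet-based 3′ single-cell RNA sequencing (10x Genomics Chromium), in which each transcript carries a unique molecular identifier (UMI). The control library came from Prickle1 f/f mice and the conditional knockout library (cKO) from Prickle1 f/f mice that also carried Ltf-cre. All mice were female and 6 months old, both groups carry the floxed Prickle1 alleles, and each library is a pool of 3 mice. The Ltf promoter drives Cre mainly in uterine epithelium, so lymphatic endothelial cells are not its intended target. A genotype field of the sample labels reads C57BL/6J wild-type for both libraries, unlike their titles, and the titles were followed.

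Lymphatic capillaries take up tissue fluid and immune cells through loose, flap-like junctions, and collecting vessels with valves carry them to lymph nodes. The transcription factor Prox1 sets and maintains this fate, Sox18 and Nr2f2 help to start Prox1 expression, and the growth factor VEGF-C drives vessel growth through the receptor Flt4. The cells also draw dendritic cells and T cells inward with the chemokine Ccl21a. In the uterus the lymphatic bed is remodelled with hormonal state and pregnancy.

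The control library held 22 members of 3653 cells and the cKO library 40 of 4950. The share was 0.602% in control (exact Clopper-Pearson 95% interval 0.378% to 0.910%) and 0.808% in cKO (0.578% to 1.10%). Over cells that were not epithelial the shares were 0.832% (19 of 2285 cells) and 0.812% (39 of 4803 cells), with a log2 ratio of -0.03 (-0.86 to 0.84). These intervals overlap. With 1 library per group there is no replicate check and no test of any difference, and every interval given here covers counting error only. The control suspension held 1368 epithelial cells by a marker gate and the cKO suspension 147, so a share of all cells moves with the epithelium as well. That gate did not exclude cells of a mesothelial marker gate (52 in control and 80 in cKO). The classes can thus share cells, and their overlap was not counted.

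Members gave 346506 UMIs in control and 1089363 in cKO. Their median depth was 8952.5 UMIs in control (range 1090 to 97293) and 14353.5 in cKO (range 1111 to 148119), against 4650 and 5944 over all cells of each library. The deepest single member held 28.1% of the control UMIs and 13.6% of the cKO UMIs. Levels are therefore given as CPM, the UMIs of a gene scaled to a total of 1000000, and the spread over cells is given beside the sum. The libraries shared 5 cell barcodes among their cells and 0 among members, and no member had a doublet score above 0.25.

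The gate genes were read first, as values the rule fixed. All 7 gate genes were detected in 13 of 22 control and 23 of 40 cKO members. Ccl21a stood at 7841 CPM in control members (lowest 586, median 5693 and highest 24316 CPM per cell) and at 7014 CPM in cKO members (0, 5703 and 27003 CPM). Prox1 stood at 1613 CPM in control (0, 1230 and 4911 CPM per cell) and at 2374 CPM in cKO (20.8, 2088 and 9571 CPM). Lyve1, a hyaluronan receptor of lymphatic capillaries, was summed to 2693 and 1530 CPM, and Mmrn1, a secreted multimerin, to 1518 and 991 CPM. Thinned to 1000 UMIs per cell, Prox1 was seen in 72.7% of control and 85% of cKO members, against 0.525% and 0.125% of fibroblasts and 0.131% and 0.285% of leukocytes at the same depth. These are values of the rule itself and describe the cells chosen.

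**Figure D1:**
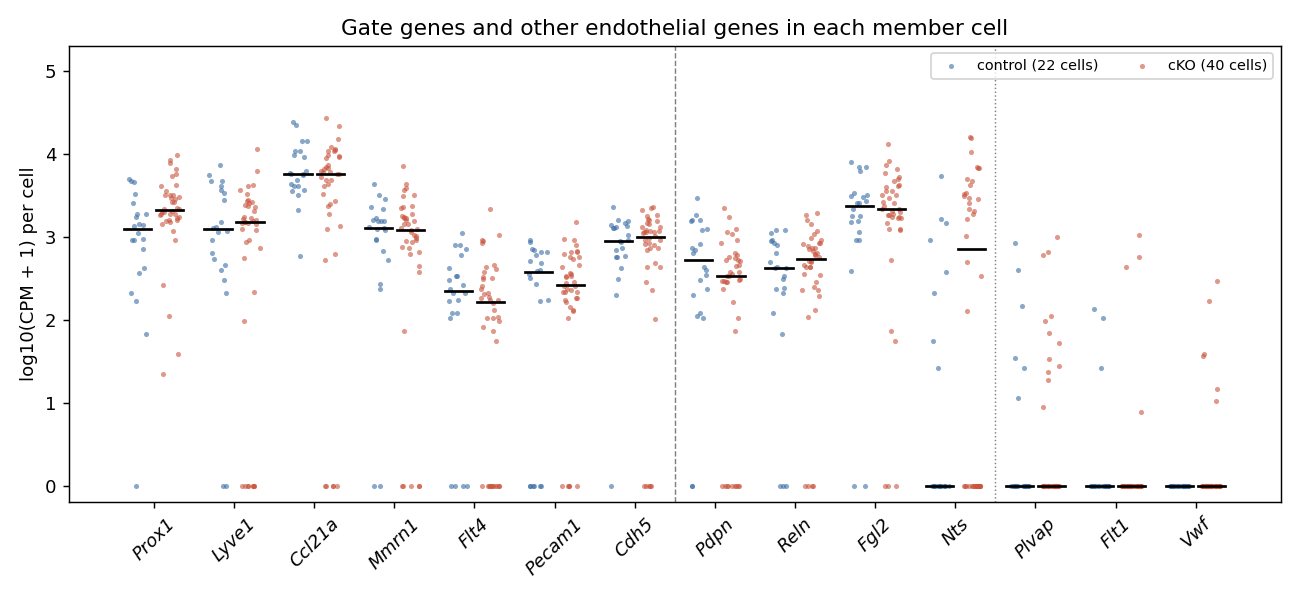
Level of each gene in each member cell, as log10(CPM + 1) with 22 control and 40 cKO cells, where black bars are medians over cells and points at 0 are cells without a UMI. The 7 gate genes lie left of the dashed line, other lymphatic genes between the lines and blood vessel genes right of the dotted line. Nts has a median of 0 in control members and of 752 CPM in cKO members.

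At the edge of the rule, 0 control and 4 cKO members had exactly 3 of the 7 genes. Of these 4, all had Prox1, 3 had Pecam1, 3 had Cdh5, 0 had Lyve1 and 1 had Ccl21a, while 2 had the blood vessel genes Vwf, Plvap and Flt1. Both of those cells had Prox1 at 1 UMI, with 48 and 16 UMIs of Plvap and 50 and 15 UMIs of Flt1, and their markers go against a lymphatic name. Another cKO member, with 4 of the 7 genes, had 2 UMIs of Prox1, 0 of Lyve1, Ccl21a and Mmrn1, 8 of Flt1 and 5 fibroblast genes. Just outside the rule, 3 control and 11 cKO cells had exactly 2 of the 7 genes, and 8 of those 11 carried at least 3 fibroblast genes. A further 1 control and 7 cKO cells met the gene rule but had Ptprc, and 6 of those 7 carried Reln.

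Genes of other cell types were scarce but uneven. At least 3 epithelial genes were found in 3 control members and 1 cKO member, and 1 control cell held 93.3% of the 420 epithelial-list UMIs of control members. The list summed to 1212 CPM in control members against 31.2 in cKO members, all 12 of its genes were at least 2-fold lower in cKO, and it summed to 6328 and 703 CPM in cell-free RNA. In members with fewer epithelial genes these UMIs came to 9 in control and 8 in cKO, which corresponds to 0.510% and 1.07% of cell-free RNA by the level in barcodes of 100 UMIs or fewer. Over all members the same estimate was 19.2% and 4.44%, and the lower estimates leave out the cells in which such RNA was seen most. At least 3 fibroblast genes were found in 1 control and 2 cKO members. A core of 15 control and 32 cKO members, chosen after the data had been seen, has at least 5 of the 7 gate genes and fewer than 3 epithelial, fibroblast or muscle genes. Where the core reversed a direction or moved a ratio that is printed here by over 1.5 times, its value is given too.

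Other genes were also higher in members than in the rest of the uterus. The rest holds only 26 gated blood endothelial cells, so genes common to all endothelium are among them. Of 4196 genes with at least 50 member UMIs, 233 (5.55%) were at least 4-fold higher in members than in all other cells of both libraries. Since the members were chosen by expression, these ratios describe the cells and test nothing. The 20 largest, gate genes apart, began with Scn3a, a sodium channel subunit, at 219 CPM in control members against 0.134 CPM in other control cells, and at 217 against 0.328 CPM in cKO. Reln, the secreted glycoprotein reelin known from lymphatic vessels, stood at 560 against 0.509 CPM in control and at 481 against 2.28 CPM in cKO. The cKO to control ratio of Reln was 0.859 (0.727 to 1.02), and it has no firm direction.

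Genes known from endothelium in general were among the others. Cldn5, the main tight junction claudin of endothelium, stood at 765 CPM in control against 869 in cKO members, against 1.23 and 4.15 CPM in other cells. Egfl7, a secreted vascular factor, had 459 and 421 CPM, and the orphan receptor kinase Tie1 had 133 and 171 CPM. Tbx1, a transcription factor needed for lymphatic growth, had 127 CPM in control against 50.5 in cKO members, and 0.0536 and 0.251 CPM elsewhere. Ackr2, a receptor that scavenges inflammatory chemokines on lymphatics, had 118 and 55.1 CPM against 0.134 and 0.463 CPM. Angpt2, Stc1, Myct1, Adgrg3, Cyyr1, Dtx1, Pcdh12, Tal1, Apold1, Ptprb, Tmem204, Robo4 and Nts completed the 20.

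**Figure D2:**
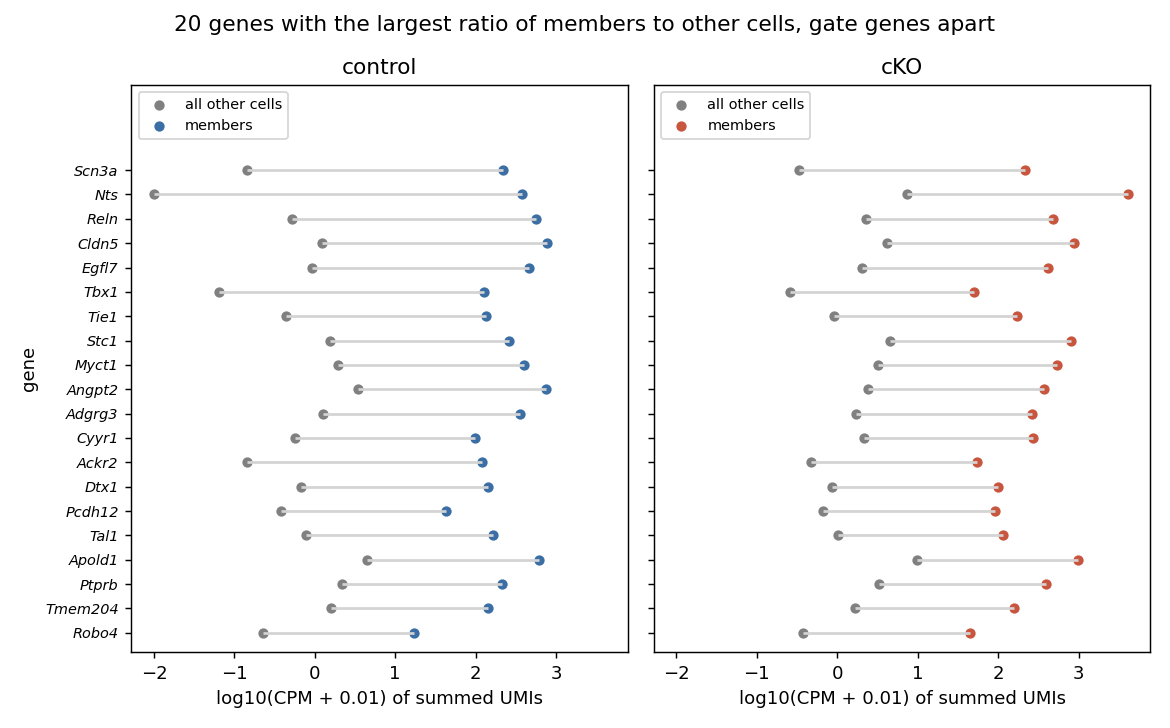
Summed level of 20 genes in members (coloured) and in all other cells (grey), as log10(CPM + 0.01), for the control and cKO libraries. In both panels every coloured point lies to the right of the grey point of its row. Nts is at 0 in other control cells.

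By fixed lists, 20 of 26 pan-endothelial genes and 13 of 26 further lymphatic genes with enough UMIs were at least 4-fold above other cells in both libraries, against 233 of 4196 genes in all. The scavenger receptor gene Stab2 and the chemokine gene Ccl21b had 0 UMIs in members, which limits each to 3 UMIs of either total. The estrogen receptor gene Esr1 had 0 UMIs in control and 2 in cKO members, while Nr3c1, the glucocorticoid receptor gene, had 309 and 252 CPM. The division marker Mki67 had 0 and 2 UMIs. Foxc2, a transcription factor of lymphatic valves and collecting vessels, was found in 6 control members at a median depth of 28043 UMIs and was missed in 16 at 5698.5 UMIs. The same held in cKO, with 17 members at 30441 UMIs and 23 at 6908, so detection of Foxc2 went with depth and members were not divided by it. Lyve1 was found in 6 of 6 control and 15 of 17 cKO members with Foxc2.

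Ligands of the VEGF-C pathway were at or near 0 in members and better covered in other cells. Vegfc had 1 UMI in control members and 0 in cKO members, Vegfd had 1 and 0, and Ccbe1 and Adamts3, which are needed to process VEGF-C, had 0 in both. Vegfd was found in fibroblasts at 48.8 CPM in control (44.2 to 53.7) and 18.9 CPM in cKO (17.3 to 20.7). Ccbe1 was highest in mesothelial cells among the classes gated, at 79.2 CPM in control against 64.0 in cKO. Vegfc in fibroblasts stood at 6.54 and 5.16 CPM.

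The libraries were then compared within members, as a description of 2 libraries. Of 6575 genes with at least 20 UMIs, 541 (8.23%) were at least 2-fold higher in cKO and 843 (12.8%) at least 2-fold lower, 1384 (21%) in all. The median log2 ratio over the 8306 genes with at least 10 UMIs was -0.20. Scaling by the trimmed mean of M values took out a shift of -0.28 from every log2 ratio, moved that median to 0.08 and raised the share of higher genes among those past 2-fold from 39.1% to 63.6%. Differences smaller than this shift have no firm direction. Gene lists are read below at 10 UMIs or more, where 827 of all 8306 genes (9.96%) were at least 2-fold higher and 1416 (17%) at least 2-fold lower.

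**Figure D3:**
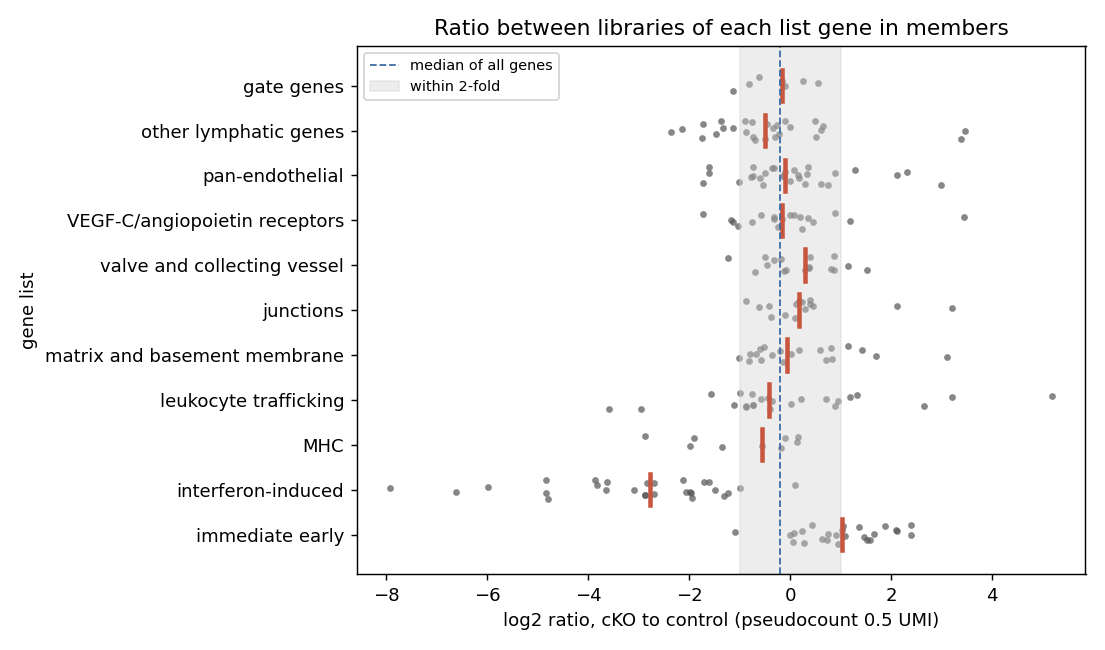
Log2 ratio of cKO to control for every list gene with at least 10 UMIs in members (points), with the list median (red bar), the median of all genes (dashed line, -0.20) and the range within 2-fold (grey). Interferon-induced genes lie almost wholly to the left, with a median of -2.77. The immediate early genes lie mostly to the right, with a median of 1.03.

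Prickle1, the floxed gene, is a cytoplasmic planar cell polarity factor at chr15:93499114-93595891 on the minus strand (GRCm38, GENCODE M21). It was rare in members of both libraries. Control members had 7 UMIs in 4 cells (20.2 CPM) and cKO members 18 UMIs in 9 cells (16.5 CPM), a ratio of 0.818 (0.326 to 2.32), and 0.456 (0.131 to 1.77) in the core. A loss in these cells could not be seen or excluded at this depth, and the 3′ reads may lie outside the floxed part, which the sources used here do not place. Of the other polarity genes, Celsr1 and Vangl2, which order lymphatic valve cells, had 8 and 1 UMIs in control and 19 and 2 in cKO. Over 12 polarity genes, 3 were at least 2-fold higher and 1 lower. The receptor gene Fzd6 was well covered, at 86.6 CPM in control against 148 in cKO.

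Among transcription factors of lymphatic identity, Sox18, Nr2f2, Tbx1 and Maf were at least 2-fold lower in cKO in the sums. Sox18 stood at 369 CPM in control members (0, 188 and 1958 CPM as the lowest, median and highest cell) and at 83.5 CPM in cKO members (0, 0 and 900 CPM). The ratio was 0.226 (0.171 to 0.298) and 0.296 (0.213 to 0.411) in the core. Control cells were high more often but the ranges of the libraries overlap. Nr2f2, the orphan nuclear receptor COUP-TFII, stood at 392 CPM in control (0, 229 and 1424) and 141 CPM in cKO (0, 98.2 and 1610), a ratio of 0.360 (0.284 to 0.457), although with members thinned to 1000 UMIs its log2 ratio was 0.055. Tbx1 had a ratio of 0.398 (0.263 to 0.605). Prox1 had a ratio of 1.47 (1.34 to 1.62) which the rule can shape, and Gata2, which acts in lymphatic valves, one of 1.43 (1.06 to 1.95).

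Among the 27 further lymphatic genes, 2 were at least 2-fold higher and 8 at least 2-fold lower, with a median log2 ratio of -0.49. The lower genes included Prss23, a secreted serine protease, at 1382 CPM in control (0, 1031 and 4435 CPM per cell) and 421 CPM in cKO (0, 75.5 and 2370 CPM). The gene for podoplanin, Pdpn, a membrane glycoprotein of lymphatic endothelium, stood at 828 and 448 CPM with a ratio of 0.541 (0.467 to 0.628). The surface gene Cd9 was at 1827 and 2574 CPM, a ratio of 1.41 (1.29 to 1.54). Averaged over cells with equal weight, the list median was 0.11, and with members thinned to 1000 UMIs it was 0.37 over the 16 genes left (-0.32 for the same genes in the sums), so the direction of the list as a whole depends on how cells are weighted.

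Nts carried the largest gain within that list. It encodes neurotensin, a peptide reported in lymphatic endothelium and gut endocrine cells, and lies at chr10:102481756-102490486 on the minus strand. It stood at 372 CPM in control (0, 0 and 5339 CPM per cell) and at 4102 CPM in cKO (0, 752 and 15899 CPM). It was found in 8 of 22 control and 23 of 40 cKO members, and 1 cKO cell held 35% of the cKO UMIs. The ratio was 11 (9.25 to 13.2), and 6.42 (5.38 to 7.72) in the core. At 1000 UMIs per cell the shares of members with Nts were 18.2% (5.19% to 40.3%) and 42.5% (27.0% to 59.1%), and those of leukocytes 0% and 0.285%. In cell-free RNA Nts stood at 2.33 and 42.9 CPM.

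Of the receptors for the vascular endothelial growth factors, Flt4, Kdr and Nrp2 were lower in cKO in the sums. Flt1 and Nrp1 were higher only over all members. Flt4, the VEGF-C receptor and a gate gene, stood at 390 CPM in control (0, 221 and 1092 per cell) and 179 CPM in cKO (0, 163 and 2147). Kdr, which encodes VEGFR2, stood at 421 CPM (0, 276 and 1092) and 128 CPM (0, 75.6 and 1553), a ratio of 0.303 (0.238 to 0.385). Nrp2, the co-receptor for VEGF-C, stood at 704 and 419 CPM, a ratio of 0.594 (0.508 to 0.697). In the sums over all members Kdr and Flt4 were thus past 2-fold and Nrp2 was not. The rule can shape the ratio of Flt4, which was 0.528 (0.410 to 0.684) in the core. Averaged over cells with equal weight, Kdr stood at 322 CPM in control and 208 CPM in cKO, which is within 2-fold. All 3 genes overlapped between libraries from cell to cell. Flt1, which encodes VEGFR1, had 6 and 74 UMIs and the co-receptor gene Nrp1 had 1 and 51, each in 4 cKO cells, but in the core Flt1 had 1 and 0 and Nrp1 had 0 in both. At 1000 UMIs per cell Kdr was found in 50% of control and 7.50% of cKO members, while the ratio of Flt4 turned to the other side, with a log2 value of 0.97.

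The angiopoietin branch split. Angpt2, the angiopoietin that lymphatic vessels themselves make, was at 756 CPM in control (0, 481 and 3114 CPM per cell) and 370 CPM in cKO (0, 65.1 and 1448 CPM), a ratio of 0.489 (0.418 to 0.574; 0.50 in the core). Its receptor Tek was at 40.4 and 41.3 CPM, and Tie1 had a ratio of 1.29 (0.927 to 1.82). Ptprb, the phosphatase that restrains Tek, was at 211 and 390 CPM, a ratio of 1.85 (1.44 to 2.41). Efnb2, the ephrin of collecting vessels and valves, was at 150 and 345 CPM, a ratio of 2.30 (1.72 to 3.14) that was 1.86 (1.35 to 2.63) in the core. Over the 19 receptor and signalling genes of this list, 2 (Nrp1 and Efnb2) were at least 2-fold higher and 4 at least 2-fold lower, against 0 and 2 of 18 in the core (10.2% and 16.9% of all genes there), and the median was -0.17, near that of all genes.

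The adrenomedullin axis, which controls lymphatic growth and permeability, had 2 of 4 genes at least 2-fold lower and 0 higher. Adm was at 268 CPM in control against 54.2 in cKO, with a ratio of 0.202 (0.143 to 0.283), and 0.102 (0.0612 to 0.165) in the core, and 64.5% of its control UMIs lay in 1 cell. Calcrl, the receptor, was at 361 and 179 CPM, a ratio of 0.496 (0.394 to 0.626). Ramp2, the co-receptor, was at 113 and 79.9 CPM, a ratio of 0.710 (0.481 to 1.06). Ackr3, the decoy receptor that removes adrenomedullin, was at 286 and 471 CPM, a ratio of 1.65 (1.33 to 2.07).

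Genes of valves and flow sensing were near the background, with 2 of 17 at least 2-fold higher in cKO and 1 lower. Klf4, a flow-responsive factor, was at 1420 CPM in control (0, 1022 and 5123 per cell) and 2603 CPM in cKO (0, 2440 and 7874), a ratio of 1.83 (1.67 to 2.02). Nfatc1, which acts in valve formation, was at 222 and 408 CPM, a ratio of 1.83 (1.44 to 2.37), and Klf2 had one of 1.77 (1.30 to 2.45). Foxc2 had a ratio of 0.895 (0.496 to 1.70), and the connexin gene Gja1 one of 1.23 (0.986 to 1.54). The lower gene was Fn1, which encodes fibronectin, at 266 and 113 CPM.

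Endothelial genes shared with blood vessels, junctions and matrix showed no common direction. Of 29 pan-endothelial genes, 4 were at least 2-fold higher and 4 lower, with a median log2 ratio of -0.10 (0.046 in the core). Of 15 junction genes, 2 were at least 2-fold higher and 0 lower, with a median log2 ratio of 0.18. Cldn5 had a ratio of 1.14 (0.991 to 1.31), Cdh5, the endothelial cadherin and a gate gene, one of 1.20 (1.06 to 1.35), and the catenin gene Ctnnb1 one of 1.07 (0.943 to 1.21; 0.934 in the core). Of 20 matrix and basement membrane genes, 4 were at least 2-fold higher and 1 lower. Timp3, a metalloproteinase inhibitor, was at 1677 and 974 CPM, a ratio of 0.581 (0.524 to 0.644).

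Genes that guide leukocytes showed no common direction, with 6 of 24 at least 2-fold higher, 4 lower and a median of -0.41. Ccl21a had a ratio of 0.895 (0.856 to 0.935) over all members and of 1.28 (1.21 to 1.36) in the core, so its direction depends on which cells are counted. Icam1, an adhesion molecule for leukocyte entry, was at 341 CPM in control against 633 in cKO, with a ratio of 1.86 (1.53 to 2.28), but with members thinned to 1000 UMIs its log2 ratio was -0.25. Ccl2, a monocyte chemokine, had similar sums of 1224 and 1414 CPM but was found in 6 of 22 control and 28 of 40 cKO members, with 56% of control UMIs in 1 cell. At 1000 UMIs per cell it was seen in 13.6% (2.91% to 34.9%) and 50% (33.8% to 66.2%) of members, against 27.6% and 31.5% of fibroblasts and 14.6% and 5.98% of leukocytes. The control share is thus no higher than that of other cells. Spns2, the exporter of sphingosine-1-phosphate, was at 98.1 and 33 CPM, a ratio of 0.337 (0.205 to 0.555) that was 0.529 (0.266 to 1.10) in the core. The receptor gene S1pr1 was at 427 and 258 CPM. Ackr2 had a ratio of 0.465 (0.308 to 0.710).

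Smaller lists held too few genes to be set against the shares over all genes (9.96% higher and 17% lower). Of 7 steroid receptor genes with enough UMIs, 2 were at least 2-fold higher and 1 lower. Of 5 proliferation genes 1 was higher and 1 lower, and of 11 genes of lipid handling 2 were higher and 3 lower. Of 9 genes of a list of vessel growth ligands, 2 were higher and 2 lower.

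The 10 genes named by rule as highest in cKO against control were Cd93, Csf3, Nts, Adamts1, Clu, Slc41a1, Flcn, Nr4a1, Igfbp7 and Nr4a2. Cd93, a C-type lectin receptor of endothelium at chr2:148436640-148443563, had 0 UMIs in control members and 201 in 13 of 40 cKO members (185 CPM). The level in cKO was at least 21.3-fold higher, taken against a floor of 3 UMIs in control, and at least 7.50-fold higher in the core. Over alternative settings of the processing the log2 ratio of Cd93 ranged from 2.20 to 7.28, and the low end lies under both bounds. The highest cell held 46.8% of the cKO UMIs, and 79 UMIs lay in the core. Cell-free RNA carried Cd93 at 36.9 CPM in control against 26.3 in cKO. Cd93 in gated blood endothelial cells was lower in cKO, at 524 CPM in 8 control and 44.4 CPM in 18 cKO cells. In that class 11 of 12 blood vessel genes and 14 of 23 pan-endothelial genes were also at least 2-fold lower, and 11 of 12 epithelial genes at least 2-fold higher, against 13% of all genes lower and 30.5% higher there. Csf3, the neutrophil growth factor G-CSF, had 5 UMIs spread over 4 control cells and 411 over 20 cKO cells, or 14.4 and 377 CPM. Adamts1, a secreted protease, was at 49.1 and 343 CPM, a ratio of 7 (4.31 to 12.1), and its level in cell-free RNA was also higher in cKO, at 343 against 126 CPM. Igfbp7, a secreted binding protein of vessels, had a ratio of 6.57 (3.70 to 12.9) in all members and of 2.32 (1.06 to 6.03) in the core. Its lowest log2 ratio over alternative settings was 0.72, which is within 2-fold.

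A group of blood vessel genes moved with a few cKO cells. Of 12 list genes, 8 were at least 2-fold higher in cKO members and 1 lower, with a median log2 ratio of 1.15, and in the core the median was -0.52 over 7 genes. Flt1 had 6 UMIs in control and 74 in cKO, and in the core 1 and 0. Plvap had 12 and 79 UMIs, and in the core 7 and 13. The summed level of the list was 661 CPM in control against 818 in cKO members, of which 1 cell held 41.1% in cKO, and was 604 and 435 CPM in the core. Rgcc, a cell cycle regulator of endothelium, had 1 control UMI and 30 cKO UMIs in the core, a ratio of 8.55 (1.42 to 349).

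Interferon-induced genes were lower in cKO members than in control members. Of 28 list genes, 26 were at least 2-fold lower and 0 at least 2-fold higher, against 17% and 9.96% of all genes, and the median log2 ratio was -2.77 (-3.15 over 27 genes in the core). The 10 genes named by rule as lowest in cKO were Ifit1, Phf11d, Trim30a, Tnfsf10, Ifi44, Gbp3, Gbp2, Trim12a, Tmem140 and Rtp4. Of these, Ifit1, Ifi44, Gbp3, Gbp2 and Rtp4 belong to the interferon list. Ifit1, which binds foreign RNA, stood at 375 CPM in control (130 UMIs in 6 cells) and 5.51 CPM in cKO (6 UMIs in 2 cells), and was 68.1-fold lower (30.5 to 189). In the core it had 106 and 1 UMIs, a ratio of 372 (65.4 to 14833) of control to cKO. Ifit3 had 38 and 0 UMIs, at least 39.8-fold lower against a floor of 3 UMIs, and at least 25.7-fold lower in the core.

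The guanylate-binding protein genes Gbp2 and Gbp3, GTPases that attack pathogen vacuoles, stood at 323 and 118 CPM in control and at 37.6 and 9.18 CPM in cKO. Isg15, a ubiquitin-like modifier, stood at 320 CPM (0, 67.5 and 1689 per cell) and 98.2 CPM (0, 34.8 and 537). The signalling factors Stat2 and Irf9, which carry the interferon signal to DNA, had ratios of 0.138 (0.0714 to 0.253) and 0.406 (0.263 to 0.630). Irf1 was not lower, with a ratio of 1.09 (0.623 to 1.99), and 1.87 (0.840 to 4.91) in the core. In antigen presentation, Psmb8 and Tap1 had ratios of 0.131 and 0.25, whereas B2m had one of 0.885 (0.798 to 0.984) and H2-K1 one of 1.10 (0.95 to 1.28). Over 9 genes of antigen presentation 0 were at least 2-fold higher and 4 lower, with a median of -0.55, and 0.090 over 13 genes with the gate on cells thinned to 2000 UMIs. Psmb8 and Tap1 rest on 17 and 7 and on 14 and 11 UMIs.

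The difference rested on a minority of cells. Summed over the list, control members ranged from 0 through a median of 803 to 14866 CPM per cell, and cKO members from 0 through 326 to 7127 CPM. Above the highest cKO cell stood 5 of 22 control members, of which 4 belong to the core and 1 is the cell that held most epithelial UMIs. In all, 17 of 22 control members were above the cKO median. Weighting all cells alike gave a list median of -1.94. Cell-free RNA carried the list at 3090 CPM in control against 670 in cKO, against 3714 and 660 CPM in members, and its part in the lower cells was not tested.

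**Figure D4:**
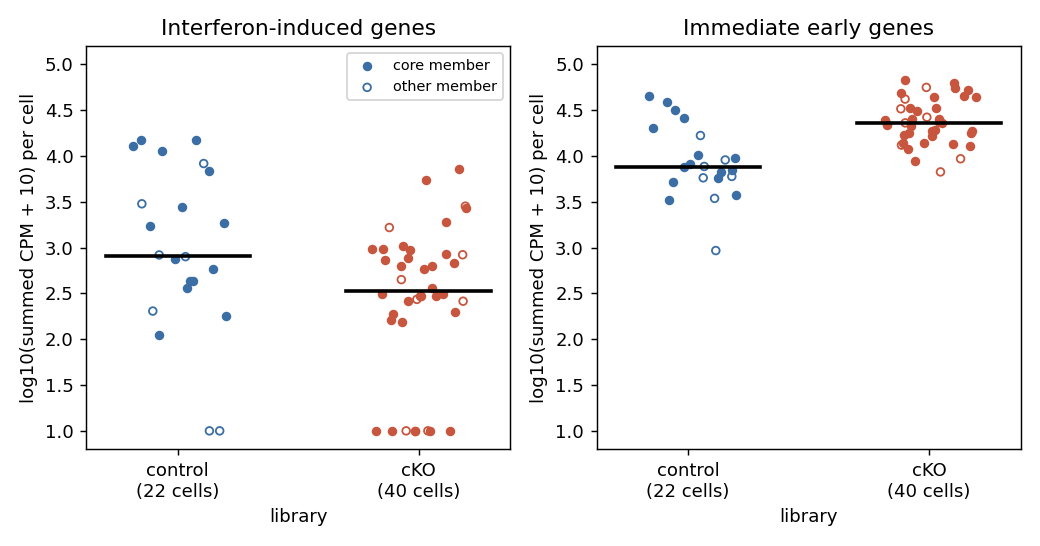
Summed level of interferon-induced genes (left) and immediate early genes (right) in each member, as log10(CPM + 10), with filled points for the core, open points for other members and black bars at the medians. On the left 5 control cells lie above every cKO cell. On the right 39 of 40 cKO cells lie above the control median.

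Interferon-stimulated response elements are promoter sites through which interferon signalling induces genes. The motif searched was GAAA, any 2 bases and GAAA again (TTTC, any 2 bases and TTTC on the other strand). It was looked for from 250 bases before to 50 after each start in the RefSeq promoter table (GRCm38.p6), and overlapping matches were counted separately. It was present for 17 of the 26 interferon list genes in that table (65.4%), against 1079 of 27025 genes (3.99%). It was found for 6 of the 9 genes named as lowest in cKO that the table holds, and for 0 of 7 of those named as highest. The 250 bases before the start are shown for 4 of the lowest genes, 5′ to 3′ on the strand of the gene, with each match in capitals.
Ifit1 (chr19:34640639-34640888, plus strand): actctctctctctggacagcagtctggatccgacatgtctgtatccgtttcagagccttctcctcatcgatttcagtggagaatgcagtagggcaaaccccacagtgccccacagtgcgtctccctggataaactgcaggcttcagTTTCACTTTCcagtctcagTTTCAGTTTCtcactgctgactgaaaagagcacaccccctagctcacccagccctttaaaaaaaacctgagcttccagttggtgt
Gbp2 (chr3:142620413-142620662, plus strand): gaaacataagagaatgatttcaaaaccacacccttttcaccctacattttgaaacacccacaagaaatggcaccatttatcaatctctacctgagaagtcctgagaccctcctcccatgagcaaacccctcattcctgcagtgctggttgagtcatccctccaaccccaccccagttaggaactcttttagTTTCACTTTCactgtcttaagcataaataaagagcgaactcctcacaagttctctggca
Gbp3 (chr3:142559794-142560043, plus strand): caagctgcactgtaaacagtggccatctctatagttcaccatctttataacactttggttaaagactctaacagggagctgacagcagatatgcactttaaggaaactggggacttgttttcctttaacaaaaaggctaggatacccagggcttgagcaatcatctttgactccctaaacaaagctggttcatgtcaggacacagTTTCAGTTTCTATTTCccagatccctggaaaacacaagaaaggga
Tmem140 (chr6:34862896-34863145, plus strand): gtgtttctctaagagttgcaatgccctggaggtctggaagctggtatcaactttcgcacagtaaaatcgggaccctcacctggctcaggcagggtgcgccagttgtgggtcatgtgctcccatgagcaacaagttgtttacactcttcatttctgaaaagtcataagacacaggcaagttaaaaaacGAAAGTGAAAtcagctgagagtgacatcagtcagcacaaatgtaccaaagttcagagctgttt
Ifit1 and Gbp3 hold 2 matches each, and Gbp2 and Tmem140 hold 1 each. The match nearest to the start of the sequence lies 104 bases before the gene start in Ifit1, 59 in Gbp2, 45 in Gbp3 and 63 in Tmem140. No match was found for Phf11d, Tnfsf10 or Ifi44. A match describes the letters and is not a measured binding site.

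Immediate early and stress genes, which cells switch on within minutes of a stimulus, were higher in cKO members. Of 25 list genes, 13 were at least 2-fold higher and 1 lower, against 9.96% and 17% of all genes, and the median log2 ratio was 1.03 in all members and in the core. Nr4a1, an inducible nuclear receptor, stood at 156 CPM in control (0, 0 and 2175 per cell) and 831 CPM in cKO (0, 523 and 5823), a ratio of 5.33 (4.05 to 7.15). Its relative Nr4a2 stood at 245 CPM (0, 0 and 3239) and 1074 CPM (0, 969 and 4647), a ratio of 4.38 (3.51 to 5.52). Control medians were 0 for both genes while single control cells reached the cKO range. Fos and Fosb, subunits of AP-1, had ratios of 2.76 (2.28 to 3.36) and 2.87 (2.35 to 3.55), and the stress factor Atf3 one of 4.33 (3.38 to 5.64).

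The heat shock genes Hspa1a and Hspa1b had ratios of 3.72 (2.96 to 4.74) and 2.99 (2.56 to 3.51). Egr1, an early growth response factor, differed less, at 776 and 1046 CPM, a ratio of 1.35 (1.18 to 1.55). Myc, a growth regulator, was the lower gene, with a ratio of 0.474 (0.363 to 0.620). Per cell the list ranged from 917 through a median of 7638 to 45482 CPM in control and from 6680 through 22763 to 67052 CPM in cKO. All but 1 of the 40 cKO members were above the control median, and 6 were above the highest control cell. The labels give 5 hours of digestion for both libraries.

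The same lists in other cells place these differences. The interferon list was lower in cKO in the 4 other classes compared (epithelial cells were not), with medians of -2.20 in fibroblasts (795 and 1630 cells), -2.25 in leukocytes (775 and 1774 cells), -1.19 in mesothelial cells (52 and 80 cells) and -2.32 in blood endothelial cells (8 and 18 cells). The immediate early list was near 0 in fibroblasts (0.10), mesothelial cells (0.09) and leukocytes (-0.10), and was -0.74 in blood endothelial cells. Nr4a1 had a ratio of 1.07 in fibroblasts and 1.67 in leukocytes, against 5.33 in members. The difference between classes was not tested, since each class has 1 library per group.

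**Figure D5:**
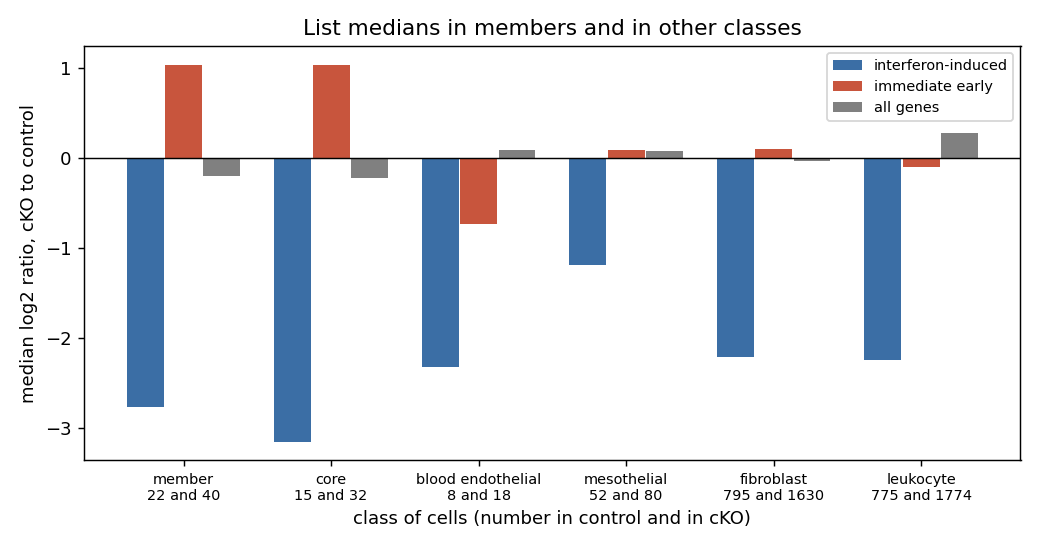
Median log2 ratio of cKO to control for interferon-induced genes (blue), immediate early genes (red) and all genes with at least 10 UMIs (grey) in members, core members and 4 other classes, with the number of cells in control and cKO under each class. Interferon bars are below 0 in every class, from -1.19 in mesothelial cells to -3.15 in the core. The immediate early bar is at 1.03 in members and near 0 in mesothelial cells (0.09), fibroblasts (0.10) and leukocytes (-0.10).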

How the data were processed

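The deposited files hold raw UMI counts per gene and barcode, and the matrices list all barcodes. Per the submitters' processing notes, the authors' tools were Cell Ranger 6.1.1 with the mm10 genome, while the matrix headers name another version of the software. The counts of 32285 features came to 45035801 UMIs in control and 57145553 in cKO, and 0 columns of other samples were present. Groups follow the sample titles.

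Counts were summed over member cells per library and scaled to CPM, and ratios carry exact conditional binomial 95% intervals (Poisson for levels, Clopper-Pearson for shares). Log2 ratios and list medians used a pseudocount of 0.5 UMIs, and genes needed 20 UMIs (10 for lists). Calls of 2-fold or more used ratios without a pseudocount, so a gene at 0 in 1 library counted as past 2-fold. Between libraries, the 10 highest and 10 lowest genes were those whose 95% interval lay farthest from a ratio of 1. They needed 20 UMIs in 5 or more member cells of the higher library, no cell with over 50% of the UMIs, and a level not under that of cell-free RNA (barcodes of 100 UMIs or fewer). Against other cells the 20 largest ratios were taken, by the lower of the libraries. The members and the 25 gene lists were chosen with earlier results of these data known. Doublets were scored with Scrublet in scanpy 1.11.5 and none was removed. The calling step was tested on simulated counts for 6575 genes, which held counting error only and no spread between cells or mice. It called 100% of 4-fold rises, 94% of 4-fold falls, 88% of 2.5-fold rises, 84% of falls to 0.4 and 5.32% of unchanged genes. The last share is thus not a rate of false calls in these data. Python 3.11.15, numpy 2.4.6 and scipy 1.17.1 were used. Gene positions are from GENCODE M21 (GRCm38) and promoters from RefSeq (GRCm38.p6).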

Additional observations from a re-analysis of the deposited data

Results flagged for a closer look

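Gated blood endothelial cells (8 in control and 18 in cKO) moved the opposite way from lymphatic endothelial members in 2 gene lists. The blood vessel list had a median log2 ratio of cKO to control of 1.15 in members and -2.21 in blood endothelial cells. In members 1 cKO cell held 41.1% of the cKO UMIs of that list. The median was -0.52 in the core, -0.91 with 4 of 7 markers required and -0.86 with the gate on cells thinned to 2000 UMIs, the same direction as in blood endothelial cells. It was 2.11 with members carrying markers of other classes left out, the opposite direction. With members thinned to 1000 UMIs 2 genes of the list were left, Aqp1 and Hey1. Their median was 0.54, against -0.72 for the same genes in the sums. The immediate early list had a median of 1.03 in members and -0.74 in blood endothelial cells. In that class 11 of 12 epithelial genes (median 2.35), 6 of 7 mesothelial genes (2.23) and 5 of 10 fibroblast genes were at least 2-fold higher in cKO, and 14 of 23 pan-endothelial genes (-1.55) at least 2-fold lower. Of all 7985 genes tested there, 30.5% were higher and 13% lower. Their part in either difference was not tested. With 1 library per group the difference between the classes was not tested.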

How the results depend on the processing

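Leaving out a replicate was not run, since each group has 1 library. No paired analysis was possible because each group has 1 library. The deepest cells weigh most in a sum, and genes under 20 UMIs are not resolved at this depth. The core was chosen after seeing the data. All 18 alternative values of the member shares stayed within the interval.

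The number of genes past 2-fold (1384) became 2132 with cells averaged, 125 of 560 tested with members thinned to 1000 UMIs and 597 at a minimum of 50 UMIs. With cells averaged, list medians were 0.11 for other lymphatic genes, 0.38 for trafficking, 0.68 for steroid receptors, -1.94 for interferon and -0.38 for proliferation. With members thinned, fewer genes passed 10 UMIs. Medians were 0.37 for 16 other lymphatic genes and 0.56 for 6 trafficking genes, against -0.32 and -0.09 for the same genes in the sums. For 2 blood vessel genes the median was 0.54, against -0.72 for the same genes in the sums. Medians were 0.83 for adrenomedullin (Ackr3 alone), 0.25 for 3 antigen presentation genes and 0.66 for lipid handling (Apold1 alone). For the last 3 the same genes were also above 0 in the sums, so the lower genes had dropped out. Gating on cells thinned to 2000 UMIs gave -0.86 for blood vessel genes, 0.83 for steroid receptors and 0.090 for antigen presentation. The blood vessel median was also -0.91 with 4 of 7 markers, -0.52 in the core and 2.11 with members carrying markers of other classes left out. Lipid handling was at 0.50 in the core and 0.49 without the latter members, and antigen presentation at -1.45 with cell-free RNA subtracted.

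Genes past 2-fold that reversed were as follows. Thinned members gave Flt4 0.97 and Nr2f2 0.055, and the thinned gate gave Fabp5 1.11 and Plvap -2.18. With 4 of 7 markers Flt1 was at -0.99 and Plvap at -1.23, and in the core Plvap was at -0.96. Genes within 2-fold have less firm directions. Over the alternatives log2 ratios ranged from -0.55 to 0.46 for Cldn5, from -0.27 to 0.63 for Tie1, from -0.62 to 1.83 for Ccl2 and from -0.43 to 0.32 for Reln. Icam1 turned to -0.25 with thinned members and Mmrn1 to 0.11 with thinned members and 0.10 with cells averaged. In the core, 3 of 17 trafficking genes were at least 2-fold higher and 3 lower, 1 and 6 of 26 other lymphatic genes, and 2 and 4 of 26 pan-endothelial genes, against 10.2% and 16.9% of all genes. The cause was not tested.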

Other observations

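Several genes that mark these cells against the rest of the uterus also differed between the libraries. Stc1, which encodes the secreted glycoprotein stanniocalcin, stood at 260 CPM in control members (0, 103 and 2323 CPM as the lowest, median and highest cell) and at 797 CPM in cKO members (0, 540 and 4249 CPM). The ratio was 3.07 (2.47 to 3.86), and 3.68 (2.81 to 4.91) in the core. Cyyr1 stood at 98.1 and 274 CPM, with a ratio of 2.80 (1.96 to 4.12), and was found in 8 of 22 and 28 of 40 members. Apold1, an endothelial early response gene, had a ratio of 1.64 (1.41 to 1.90), and Adgrg3 one of 0.740 (0.597 to 0.923). Stc1 and Cyyr1 were thus past 2-fold and the other two were not, and single cells of the libraries overlapped for all 4 genes.

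Among the 10 genes named as highest in cKO members, Flcn, Slc41a1 and Clu belong to none of the gene lists. Flcn, which encodes folliculin, had 3 UMIs in 2 control cells and 115 UMIs in 21 cKO cells, a ratio of 12.2 (4.07 to 60.0). Slc41a1, a magnesium transporter gene, had 9 and 225 UMIs, a ratio of 7.95 (4.11 to 17.6). Clu, the chaperone clusterin, had 3 and 118 UMIs, a ratio of 12.5 (4.18 to 61.5) that was 5.70 (1.86 to 28.4) in the core. These genes rest on few control UMIs, and their intervals are wide.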
